A study of Rattus norvegicus with 9 samples.

Results

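Cystatin C (Cst3) and 9 lysosome-related genes, namely cystatin B (Cstb) and the cathepsins Ctsa, Ctsb, Ctsc, Ctsd, Ctsh, Ctsl, Ctss and Ctsz, were followed across cultured rat hippocampal neurons. They were selected by gene symbol, with their levels in these libraries in view, and are 10 of the 34092 genes in the expression table. RNA was sequenced from 9 libraries, 3 per group. All groups were primary cultures of wild-type rat hippocampal cells taken from fetuses on embryonic day 17 and grown to 7 days in vitro. Control cultures received vehicle, NPCT cultures received 1 nM human aminoprocalcitonin (NPCT, a peptide cleaved from procalcitonin) for 24 h, and PCT cultures received 1 nM of its parent peptide, human procalcitonin (PCT), for 24 h. The cultures were kept without mitotic inhibitors, so non-neuronal cells could divide in them. The study's methods describe RNA from pooled samples of biological triplicates, and whether the 3 libraries of a group came from separate cultures is not stated. The p-values and intervals here therefore measure the spread between these libraries, which may be technical.

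Cathepsins are proteases that break down proteins in the acidic lysosome. Cathepsins B, C, H, L, S and Z use a cysteine in their active site, cathepsin D uses aspartate, and cathepsin A is a serine carboxypeptidase that also protects other lysosomal enzymes. Cystatins bind cysteine cathepsins tightly and block them. Cystatin C is secreted and acts mainly outside cells, whereas cystatin B stays in the cytosol. In the brain, cystatin C is made abundantly by astrocytes and also by other cells, and cathepsin S is known as a protease of microglia, the resident macrophages.

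Promoter windows of the genes were read from RefSeq on the GRCr8 build, from 250 bases before to 50 bases after the gene start. A window was found for 9 of the 10 genes, and none was matched for Ctsb. The E-box CACGTG, the core of the element bound by TFEB and related factors at many lysosomal genes, was searched on both strands, where it reads alike. It was present in 2 of the 9 windows, those of Cstb and Ctsd, in 15 of 62 windows of other lysosomal genes and in 6.418% of all 33469 windows. The core GAGGAAGT, a sequence that the myeloid factor PU.1 (Spi1) binds, was also searched on both strands. It was present in 2 of the 9 windows, those of Ctss and Ctsc, in 1 of the 62 windows of other lysosomal genes and in 2.42% of all windows. The 2 letter strings do not overlap each other. The 4 windows that hold a match are shown 5′ to 3′ on the strand of the gene, with the match in capitals. In Ctss and Ctsc the match lies on the opposite strand and so is read as ACTTCCTC. It starts 17 bases before the gene start in Ctss and 248 bases before it in Ctsc. In Ctsd the matches start 157 and 10 bases before the gene start, and in Cstb the match starts 22 bases before it. A match describes the letters in the window and is not evidence of binding.
Ctss promoter (chr2:185775146-185775445, plus strand): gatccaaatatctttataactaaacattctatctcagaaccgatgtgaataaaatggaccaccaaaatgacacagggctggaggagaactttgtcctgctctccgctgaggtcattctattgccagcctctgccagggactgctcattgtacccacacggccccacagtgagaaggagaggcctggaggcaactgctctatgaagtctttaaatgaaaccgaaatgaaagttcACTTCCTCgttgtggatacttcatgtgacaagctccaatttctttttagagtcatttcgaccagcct
Ctsc promoter (chr1:151440799-151441098, plus strand): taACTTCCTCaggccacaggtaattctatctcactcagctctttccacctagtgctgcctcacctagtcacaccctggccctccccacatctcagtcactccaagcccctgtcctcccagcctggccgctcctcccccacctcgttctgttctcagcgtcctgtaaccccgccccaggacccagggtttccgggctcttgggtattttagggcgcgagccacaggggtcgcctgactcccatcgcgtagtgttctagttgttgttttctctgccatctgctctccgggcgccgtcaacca
Ctsd promoter (chr1:206968772-206969071, minus strand): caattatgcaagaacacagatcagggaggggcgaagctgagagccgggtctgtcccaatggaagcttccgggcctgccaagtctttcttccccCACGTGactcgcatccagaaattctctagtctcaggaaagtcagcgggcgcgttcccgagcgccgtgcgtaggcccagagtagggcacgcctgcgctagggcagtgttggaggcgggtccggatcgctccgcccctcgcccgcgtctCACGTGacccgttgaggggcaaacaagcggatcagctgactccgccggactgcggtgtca
Cstb promoter (chr20:10247150-10247449, minus strand): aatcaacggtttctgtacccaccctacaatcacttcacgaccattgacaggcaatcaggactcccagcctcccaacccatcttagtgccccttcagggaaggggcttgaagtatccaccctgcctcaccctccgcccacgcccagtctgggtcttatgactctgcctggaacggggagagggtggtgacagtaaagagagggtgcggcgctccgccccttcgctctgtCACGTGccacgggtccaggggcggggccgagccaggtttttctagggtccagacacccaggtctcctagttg

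The libraries held 13573056 to 17211642 fragments assigned to genes. In 2 of the libraries, read counts stood apart from the rest of their group. PCT replicate 3 differed from PCT replicates 1 and 2 by a chi-square per degree of freedom of 23.0 and 20.2, against 6.70 between those 2, and NPCT replicate 3 differed from its companions by 11.3 and 11.4, against 4.58 between them. Control pairs lay between 4.34 and 5.21. Markers of the labelled neurons were abundant in every library, with Map2 between 125 and 199 FPKM and Tubb3 between 592 and 758 FPKM. The cultures also held astrocyte transcripts, with a summed level of 11 markers of 2150 to 2712 FPKM, and low microglial ones. FPKM, fragments scaled by gene length and by library depth, corrects for gene length and so allows levels of different genes to be set side by side.

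**Figure D1:**
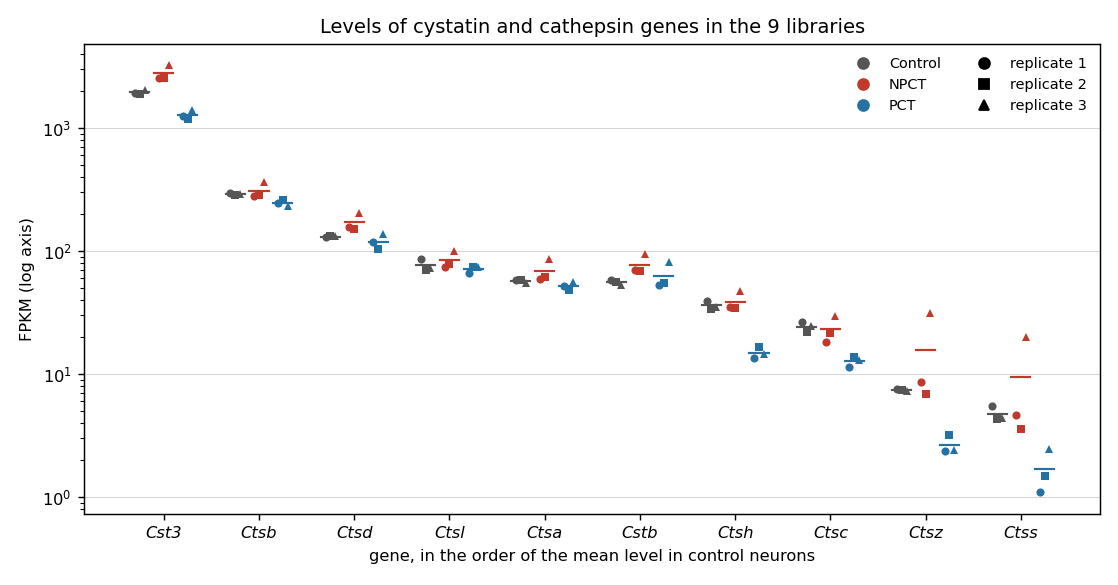
Levels of the 10 genes in FPKM on a log axis, by group and replicate, with horizontal lines at the group means. Cst3 lies far above the other genes in all 9 libraries, and the triangle of NPCT replicate 3 lies well above the other 2 NPCT points for Ctsz and Ctss.

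Cst3 was the most abundant of the 10 genes in all groups and ranked 14 of 34092 genes by mean level in Control cultures, at 1956 ± 78.5 FPKM (SD, n = 3). The next, Ctsb, encoding cathepsin B, ranked 172 with 289.8 FPKM, 6.75 times lower. Ctsd ranked 508, Ctsl 987, Ctsa 1422, Cstb 1465, Ctsh 2535, Ctsc 3858, Ctsz 8848 and Ctss 10401. In Control cultures, neighbours in this order overlapped between libraries only for Ctsa and Cstb. With NPCT, the libraries also overlapped between Ctsl and Cstb, between Ctsc and Ctsz and between Ctsz and Ctss, and with PCT between Ctsl and Cstb, Cstb and Ctsa, Ctsh and Ctsc, and Ctsz and Ctss.

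Cst3, the secreted inhibitor, was high after NPCT and low after PCT. Its level was 1936, 1890 and 2043 FPKM in the Control libraries, 2557, 2535 and 3228 FPKM with NPCT and 1246, 1182 and 1398 FPKM with PCT. The 3 groups did not overlap: every NPCT library was above every Control library and every PCT library was below. The gene lies at chr3:143219686-143223615 on Rnor_6.0 (ENSRNOG00000005195) and was read with 13189 to 39141 fragments per library. The log2 difference from Control was 0.50 (SE 0.11) for NPCT and -0.62 (SE 0.11) for PCT, in the limma fit of all 9 libraries on log2(FPKM + 0.1). Without NPCT replicate 3, the NPCT difference was 0.38, and without PCT replicate 3 the PCT difference was -0.69. The NPCT difference was 0.78 with quantile normalization and 0.33 with the gene length trend removed. Cst3 alone took 0.147% to 0.160% of all fragments in Control libraries, 0.204% to 0.257% with NPCT and 0.0935% to 0.112% with PCT. Both comparisons with vehicle share the same Control libraries.

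Cstb, the cytosolic inhibitor, was also higher in every NPCT library. It read 58.6, 55.8 and 53.3 FPKM in Control cultures, 70.1, 68.7 and 93.8 FPKM with NPCT and 53.0, 54.5 and 81.9 FPKM with PCT. The PCT values overlapped Control, with replicate 1 just below the Control range, replicate 2 inside it and replicate 3 far above it. The log2 difference was 0.46 (SE 0.17) with NPCT and 0.15 (SE 0.17) with PCT, and the latter turned to -0.06 without PCT replicate 3 and was 0.26 without PCT replicate 1. With the gene length trend removed, the difference was 0.28 with NPCT and 0.05 with PCT. The ratio of Cst3 to Cstb was 33.0 to 38.3 in Control, 34.4 to 36.9 with NPCT and 17.1 to 23.5 with PCT, so that with PCT the secreted inhibitor was low relative to the cytosolic one in all 3 libraries.

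Among the cysteine cathepsins, the abundant Ctsb and Ctsl varied little, while Ctsh, Ctsc, Ctsz and Ctss were low with PCT. Ctsb, an endopeptidase that also trims dipeptides from protein ends, gave 296, 283 and 291 FPKM in Control, 277, 288 and 362 FPKM with NPCT and 244, 261 and 231 FPKM with PCT. PCT libraries were all below Control, by a log2 difference of -0.24 (SE 0.10), and NPCT libraries overlapped Control at 0.08 (SE 0.10). Ctsl, a broad endopeptidase, gave 86.1, 69.9 and 72.8 FPKM in Control, 74.3, 77.9 and 99.7 FPKM with NPCT and 66.3, 74.0 and 74.4 FPKM with PCT. Its groups overlapped in every comparison, with log2 differences of 0.13 (95% interval -0.14 to 0.41) with NPCT and -0.09 (95% interval -0.36 to 0.19) with PCT. The NPCT value of Ctsl was 0.0027 without NPCT replicate 3 and 0.22 without Control replicate 1. The sign of its PCT value turned without Control replicate 1, to 0.0028, and that of Ctsb with NPCT turned to -0.04 without NPCT replicate 3. Without Control replicate 2 the PCT value of Ctsl was -0.15, and without NPCT replicate 1 the NPCT value of Ctsb was 0.15.

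Ctsh and Ctsc were lower in every PCT library than in any Control or NPCT library. Ctsh, an aminopeptidase, gave 39.4, 33.6 and 35.1 FPKM in Control, 34.7, 34.3 and 47.1 FPKM with NPCT and 13.5, 16.6 and 14.4 FPKM with PCT. Its PCT mean was 41.2% of the Control mean, and the log2 difference was -1.28 (SE 0.13). Ctsc, which removes dipeptides and activates granule proteases of immune cells, gave 26.3, 22.0 and 24.5 FPKM in Control, 18.3, 21.5 and 29.5 FPKM with NPCT and 11.4, 13.7 and 12.9 FPKM with PCT. Its PCT mean was 52.3% of the Control mean, with a log2 difference of -0.93 (SE 0.16). With NPCT both genes overlapped Control, at log2 differences of 0.09 (SE 0.13) for Ctsh and -0.10 (SE 0.16) for Ctsc. These signs turned when NPCT replicate 3 was left out for Ctsh, to -0.06, and when NPCT replicate 1 was left out for Ctsc, to 0.06. Without NPCT replicate 3, the Ctsc value was -0.29, and without NPCT replicate 2 the Ctsh value was 0.17.

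Ctsz and Ctss were the least abundant of the 8 cathepsins followed here and showed the widest spread. Ctsz, a carboxypeptidase, gave 7.51, 7.43 and 7.34 FPKM in Control, 8.65, 6.89 and 31.4 FPKM with NPCT and 2.39, 3.17 and 2.40 FPKM with PCT. Ctss, an endopeptidase that works at near-neutral pH and processes the invariant chain in antigen-presenting cells, gave 5.47, 4.27 and 4.40 FPKM in Control, 4.62, 3.59 and 20.1 FPKM with NPCT and 1.09, 1.49 and 2.48 FPKM with PCT. For both genes, PCT libraries were all below Control and the high NPCT mean came from NPCT replicate 3. The counts behind Ctss ran from 16 to 308 fragments per library and those behind Ctsz from 48 to 658, so that their counting precision is lower than that of Cst3. The spread between libraries lay mostly in the NPCT group. For Ctsz the SD was 0.08 FPKM in Control, 13.7 with NPCT and 0.45 with PCT, and for Ctss 0.66, 9.27 and 0.71 FPKM. With PCT, the log2 difference was -1.50 (95% interval -2.78 to -0.21) for Ctss and -1.46 (95% interval -2.52 to -0.41) for Ctsz. With NPCT it was 0.56 (95% interval -0.72 to 1.85) and 0.73 (95% interval -0.33 to 1.78), and without NPCT replicate 3 it was -0.20 and 0.06. Without NPCT replicate 2 it was 1.03 and 1.14.

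Ctsd, which encodes the main aspartic protease of lysosomes, was higher in all NPCT libraries. It gave 129.8, 131 and 131 FPKM in Control, 157, 152 and 203 FPKM with NPCT and 117, 103 and 137 FPKM with PCT. The log2 difference was 0.37 (SE 0.13) with NPCT, 0.24 without NPCT replicate 3, and -0.14 (SE 0.13) with PCT, where the groups overlapped. The PCT value was -0.04 without PCT replicate 2 and -0.25 without PCT replicate 3. The carboxypeptidase Ctsa gave 58.0, 58.3 and 55.3 FPKM in Control, 59.0, 61.5 and 86.1 FPKM with NPCT and 52.0, 48.1 and 56.4 FPKM with PCT. NPCT values lay just above Control for replicates 1 and 2, and the log2 difference of 0.25 (SE 0.13) fell to 0.07 without NPCT replicate 3. With PCT it was -0.14 (SE 0.13), and -0.08 without PCT replicate 2.

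**Figure D2:**
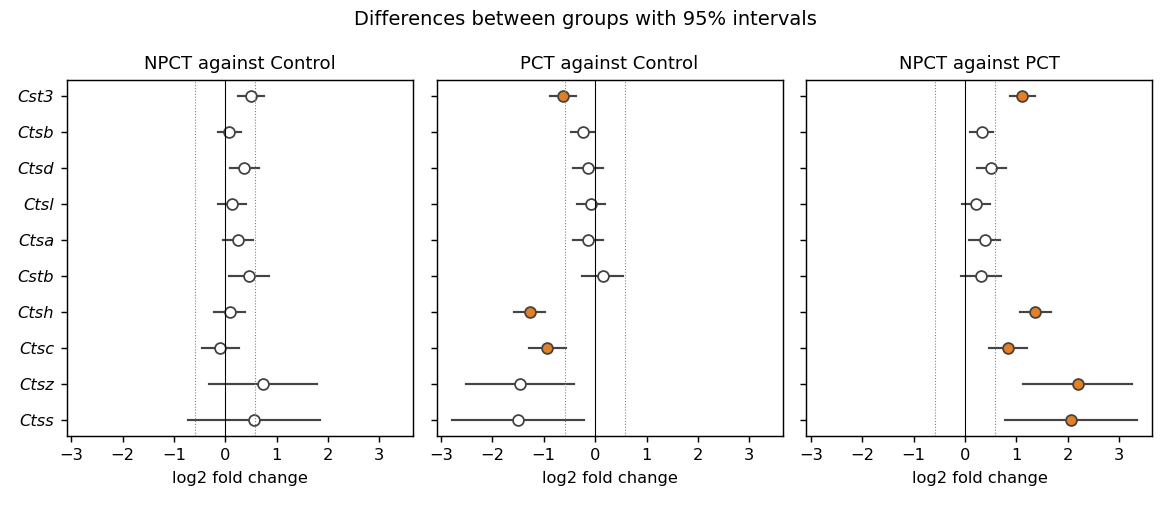
Log2 fold changes of the 10 genes in the 3 comparisons, with 95% intervals; dotted lines mark a 1.5-fold change and filled points met the call rule. Cst3 lies at 0.50, -0.62 and 1.12 from left to right, and the intervals of Ctsz and Ctss are the widest.

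A gene was called when its adjusted p (limma, Benjamini-Hochberg over all 15958 genes tested) was at most 0.05 and its fold change above 1.5. All 10 genes passed the filter of a mean of at least 0.5 FPKM. Because the genes were chosen on these values, the counts describe them and nothing is read from them. With NPCT, 0 of the 10 were called, against 0.15% of all genes called higher and 0.0689% called lower. At an unadjusted p under 0.05 limma gave 3 (Cst3, Cstb and Ctsd), against 29.3% of all genes. By the call rule, limma-voom on recovered fragments gave 0, against 390 of the 15958 genes. With quantile normalization 1 was called (Cst3, log2 0.78), against 189 of the 15958 genes. The groups did not overlap for 4 (Cst3, Cstb, Ctsd and Ctsa, all above Control), against 40.3% of all genes. With PCT, 3 were called lower (Cst3, Ctsc and Ctsh), against 1.72% of all genes called lower and 0.589% called higher, and 6 did not overlap (also Ctsb, Ctss and Ctsz), against 24.9%. Without NPCT replicate 3, 5 of the 10 were called with PCT, Ctss and Ctsz being added, against 398 of the 15958 genes. The call of Cst3 was lost without Control replicate 1, 2 or 3 or PCT replicate 2, and that of Ctsc without Control replicate 1 or 3. Cst3 also lost its call with quantile normalization and without the filter on low values. Ctsh kept its call in all these fits.

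Set directly against each other, NPCT and PCT cultures differed most in the cysteine cathepsins Ctsz, Ctss and Ctsh and in Cst3. The log2 difference, NPCT minus PCT, was 2.19 (SE 0.47) for Ctsz, 2.06 (SE 0.57) for Ctss, 1.37 (SE 0.13) for Ctsh, 1.12 (SE 0.11) for Cst3 and 0.83 (SE 0.16) for Ctsc. It was 0.51 (SE 0.13) for Ctsd, 0.38 (SE 0.13) for Ctsa, 0.32 (SE 0.10) for Ctsb, 0.31 (SE 0.17) for Cstb and 0.22 (SE 0.12) for Ctsl. Every gene was thus higher on average with NPCT, and for 8 the groups did not overlap, Cstb and Ctsl being the exceptions, against 33.4% of all genes. The first 5 named were called higher, against 4.38% of all genes called higher and 1.38% called lower. Without NPCT replicate 3, the difference was 1.52 for Ctsz and 1.30 for Ctss, and both kept their call. In the same fit it was 0.38 for Ctsd, 0.21 for Ctsa, 0.20 for Ctsb, 0.17 for Cstb and 0.09 for Ctsl. Without PCT replicate 3, that of Cstb was 0.51. The call of Ctss was lost in 6 of the 9 fits that left out 1 library, without Control replicate 1, 2 or 3, NPCT replicate 1, or PCT replicate 1 or 2. It was also lost with a pseudocount of 1, without the filter on low values, in the fit of these 2 groups alone and with limma-voom. The call of Ctsz was lost without PCT replicate 1 and in the fit of the 2 groups alone, and Ctsd was called without NPCT replicate 2 or PCT replicate 3.

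Summed over the 6 cysteine cathepsins, levels were 420.2 to 460.5 FPKM in Control, 418 to 589 FPKM with NPCT and 338 to 370.3 FPKM with PCT. Cst3 exceeded this sum by a ratio of 4.20 to 4.70 in Control, 5.48 to 6.12 with NPCT and 3.19 to 4.14 with PCT. The ratio did not overlap between groups. The sum is made up mostly of Ctsb and Ctsl, and single cathepsins differed from it. With PCT, Cst3 averaged 65.2% of its Control mean, which was below Ctsb at 84.7% and Ctsl at 93.8% but above Ctsc at 52.3%, Ctsh at 41.2%, Ctss at 35.8% and Ctsz at 35.7%. Of the summed FPKM of the 8 cathepsins followed here, Ctsb made up 45.6% to 46.8% in Control, 41.2% to 44.6% with NPCT and 43.5% to 50.1% with PCT.

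Marker levels of other cell types moved in the same libraries. The summed level of 15 of 16 listed microglial markers was 52.8, 70.0 and 71.2 FPKM in Control libraries in order of level, 64.5, 69.1 and 250 FPKM with NPCT and 19.1, 21.8 and 23.0 FPKM with PCT. The 250 FPKM was in NPCT replicate 3, where the markers stood at 1.65 to 13.9 times the mean of the other NPCT libraries, with a median of 3.23. With PCT, 8 of the 15 were called lower, against 1.72% of all genes. Among them were Csf1r (log2 -2.22, adjusted p 0.045 by limma), Aif1 (log2 -2.23, adjusted p 0.033) and Cx3cr1 (log2 -2.57, adjusted p 0.0040), the receptor for fractalkine. With NPCT, 0 were called, and 1 had an unadjusted p under 0.05 in limma, against 29.3% of all genes. None of the 15 was at 0 in all libraries. An exact two-sided permutation test of the sum gave p = 0.1 for PCT against Control, the smallest that 3 against 3 libraries allow, and p = 0.6 for NPCT. The part of microglia in the values of Ctss, Ctsz, Ctsh and Ctsc was not tested. In these bulk samples, fewer cells of a type and less RNA per cell cannot be told apart.

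The summed level of 11 astrocyte markers was 2493 to 2673 FPKM in Control, 2452 to 2712 FPKM with NPCT and 2150 to 2217 FPKM with PCT. With PCT it was lower in all 3 libraries (exact permutation p = 0.1). Of 10 markers tested 5 were called lower, against 1.72% of all genes, including the water channel Aqp4 (log2 -0.64, adjusted p 0.0041 by limma). The glutamate transporter Slc1a3 had a log2 difference of -0.32, below the fold threshold, and Gfap gave 0.25 (adjusted p 0.15). With NPCT the astrocyte sum overlapped Control (exact permutation p = 0.9), and 0 of the 10 were called, 3 having an unadjusted p under 0.05 in limma, against 29.3% of all genes. Cst3 was above Control in every NPCT library while this sum was not. The sum weights abundant markers most, with Gfap at 776 and Slc1a3 at 637 FPKM on average in Control. Single markers differed from it: with NPCT, 1 of the 10 lay above Control and 2 (Aqp4 and Slc1a3) below, against 40.3% of all genes not overlapping. The 1 above was Aldh1l1, named here after its values were seen, at a mean of 10.9, 13.5 and 6.09 FPKM in Control, NPCT and PCT cultures. The neuronal sum was 2871 to 2962 FPKM in Control, 2744 to 2826 FPKM with NPCT and 2845 to 3079 FPKM with PCT. With NPCT it lay below Control without overlap (exact permutation p = 0.1), and 0 of the 14 neuronal markers were called, 8 having an unadjusted p under 0.05 in limma, against 29.3% of all genes. Endothelial and pericyte markers summed to 3.80 to 4.93 FPKM, with Cldn5 at 0 in all libraries. Fibroblast markers summed to 11.4 to 14.9 FPKM in Control, 11.0 to 13.0 FPKM with NPCT and 13.6 to 22.6 FPKM with PCT. Of these 5, Col3a1, a fibrillar collagen, was called higher with PCT than in Control (log2 0.87, limma adjusted p 0.041), against 0.589% of all genes. Col3a1 was also called lower with NPCT than with PCT, against 1.38%. The sum of 9 oligodendrocyte-lineage markers was 409 to 427 FPKM in Control, 439 to 455 FPKM with NPCT and 354 to 368 FPKM with PCT. Its 3 groups did not overlap and lay in the same order as those of Cst3 (exact permutation p = 0.1 for each comparison), while 0 of the 9 markers were called. At an unadjusted p under 0.05 limma gave 4 with NPCT, against 29.3% of all genes, and 2 with PCT, against 3017 of the 15958 genes. The low sum with PCT came mostly from Olig1, named here after its values were seen, at 277, 259 and 279 FPKM in Control and 195, 185 and 192 FPKM with PCT, and the median log2 difference of the 9 markers with PCT was 0.17. The part of astrocytes and of oligodendrocyte-lineage cells in the Cst3 values was not tested.

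**Figure D3:**
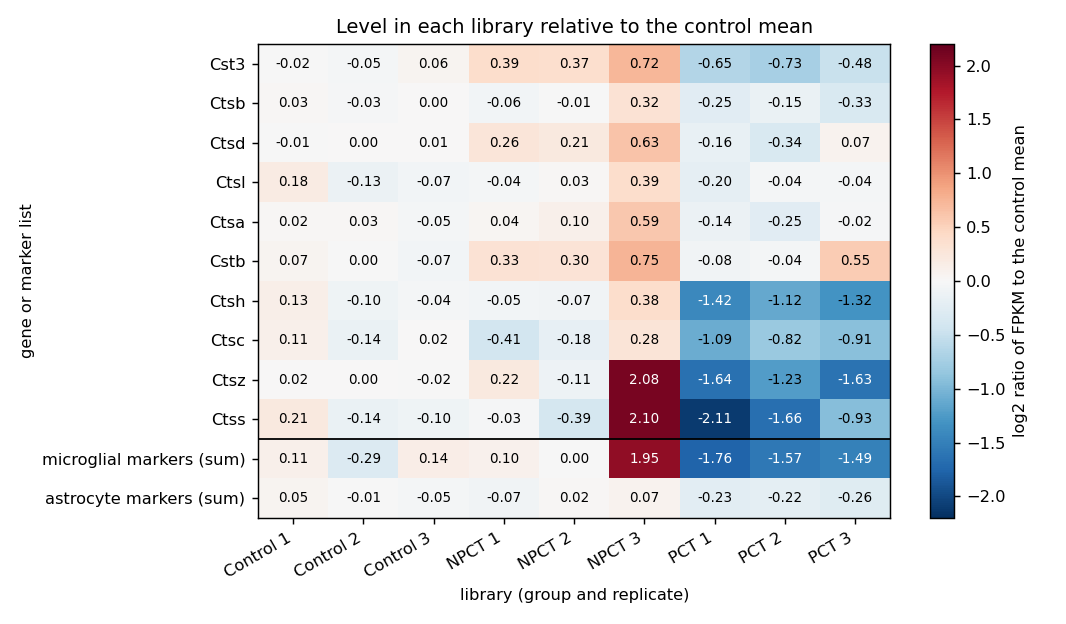
Log2 ratio of each library's FPKM to the Control mean, for the 10 genes and, below the line, the summed microglial and astrocyte markers. Ctsz and Ctss stand at 2.08 and 2.10 in NPCT replicate 3, beside 1.95 for the microglial sum, whereas Cst3 is above 0 in all NPCT libraries and below 0 in all PCT libraries.

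The genes with patterns most like these were sought among 10064 genes with a symbol and a mean of at least 5 FPKM, by the root mean square difference of log2 levels, each taken from its own mean over the 9 libraries. Nearest to Cst3 was Aldh2, a mitochondrial aldehyde dehydrogenase, at a distance of 0.072, followed by Hopx (0.11), Gprc5b (0.11), Bhlhe41 (0.11) and Crb2 (0.13). For scale, the spread of Cst3 itself about its mean was 0.47. Aldh2 averaged 60.7 FPKM in Control, 88.0 FPKM with NPCT and 38.0 FPKM with PCT. Nearest to Ctss was Ctsz (0.33), followed by the complement gene C1qb (0.36), the microglial adaptor Tyrobp (0.44), the Fc receptor chain Fcer1g (0.45) and Tmem176a (0.45), against a spread of 1.11 for Ctss. C1qb averaged 7.52, 17.4 and 3.65 FPKM in Control, NPCT and PCT cultures, with 37.1 FPKM in NPCT replicate 3. These distances describe the 9 libraries and carry no test.

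Other members of the cathepsin and cystatin families were mostly listed at 0 or near it. Of 33 listed, 28 were in the table, 13 of them at 0 in all libraries and 12 at a mean below the filter, the highest at 0.397 FPKM. The 3 tested were Ctsf, Cst6 and Ctsk, and 0 were called in any comparison, with an unadjusted p under 0.05 in limma for 1 of the 3 in each. Over all 15958 genes, 4671 had such a p for NPCT against Control, 3017 for PCT against Control and 5286 for NPCT against PCT. Ctsf, a cysteine cathepsin, gave 27.9 ± 1.25, 31.5 ± 1.04 and 24.6 ± 2.94 FPKM in Control, NPCT and PCT cultures (SD, n = 3). It differed between NPCT and PCT by 0.36 on the log2 scale (limma adjusted p 0.027), under the fold threshold. Cst6, a secreted cystatin, gave 5.67 ± 1.33, 7.87 ± 0.52 and 9.28 ± 1.70 FPKM in the same order, and Ctsk, the collagen-degrading cathepsin of bone, about 1.01, 0.81 and 0.98 FPKM.

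Of 82 other lysosomal genes listed, 78 were in the table and 76 were tested. With NPCT, 0 were called, and 22 had an unadjusted p under 0.05 in limma, against 29.3% of all genes. The median log2 difference of the 76 was 0.06, beside 0.01 over all genes tested. In limma-voom 3 were called, against 390 of the 15958 genes. With PCT, 1 was called lower, against 1.72% of all genes. It was Manba, encoding beta-mannosidase, at 3.47, 2.74 and 2.91 FPKM in Control against 1.48, 1.38 and 1.50 FPKM with PCT (log2 -1.01, limma adjusted p 0.011). This call was lost without Control replicate 1, and the median over the 76 was -0.07.

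Between NPCT and PCT, 6 of the 76 were called, all higher with NPCT and all hydrolases, against 4.38% of all genes called higher and 1.38% called lower. They were Manba (log2 0.89, SE 0.16), Man2b1 (0.75, SE 0.10), Lgmn (0.67, SE 0.18), Gusb (0.66, SE 0.14), Fuca1 (0.61, SE 0.12) and Hexa (0.60, SE 0.12), with adjusted p from 0.0028 to 0.036 in limma. Man2b1, an alpha-mannosidase, gave 17.3, 19.3 and 22.8 FPKM with NPCT and 11.8, 11.9 and 11.3 FPKM with PCT. Lgmn, the asparaginyl endopeptidase that matures several cathepsins, gave 27.4, 28.3 and 46.9 FPKM with NPCT and 21.9, 20.9 and 19.7 FPKM with PCT. Without NPCT replicate 3, its difference was 0.42. Of the 6, 2 were called without NPCT replicate 3 and 2 without PCT replicate 1. The median log2 difference was 0.27 for the 35 hydrolases and activators tested, -0.12 for the 16 subunits of the proton pump (V-ATPase) and 0.02 for the 13 membrane proteins. The most abundant of these genes were not called. Psap, the saposin precursor, gave 665 ± 8.67, 708 ± 90.7 and 567 ± 15.6 FPKM in Control, NPCT and PCT cultures (SD, n = 3). Atp6v0c gave 585, 647 and 564 FPKM, and Cd63 gave 154, 189.6 and 211 FPKM.

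**Figure D4:**
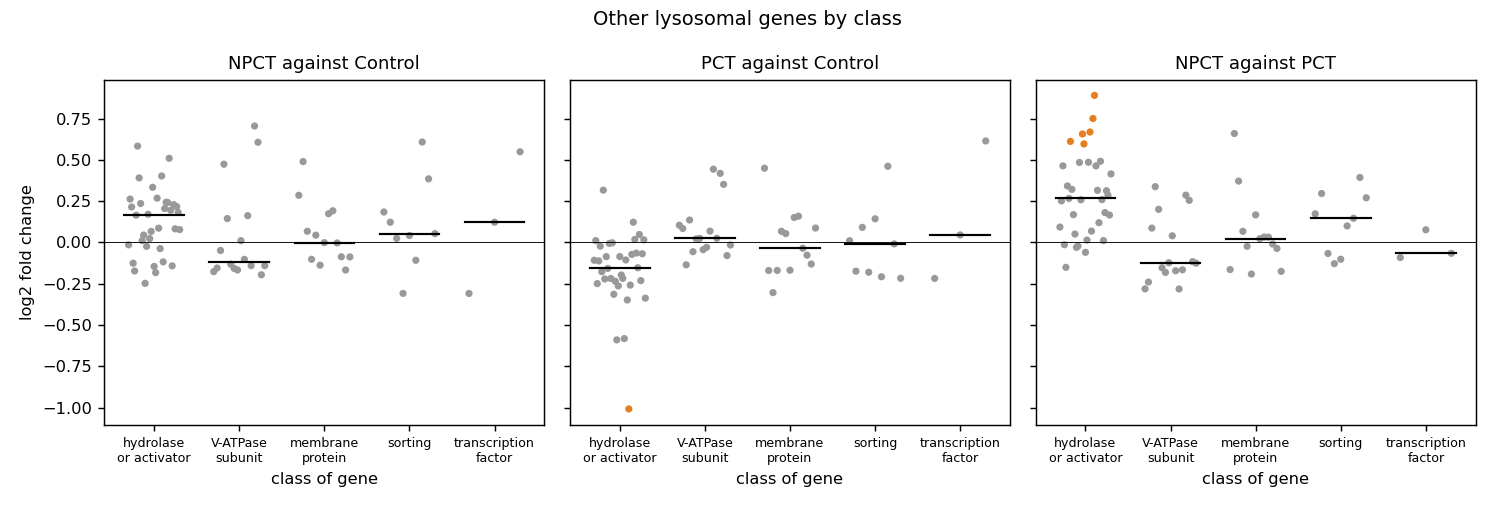
Log2 fold changes of the 76 other lysosomal genes tested, by class, with lines at the class medians and called genes in orange. The 6 called genes of NPCT against PCT, from 0.60 to 0.89, all lie among the hydrolases and activators, and the single called gene of PCT against Control lies at -1.01.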

How the data were processed

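RNA of 9 libraries of rat hippocampal cultures was measured, 3 in each of the Control, NPCT and PCT groups, as poly-A RNA sequenced on an Illumina NovaSeq instrument. The authors aligned reads with HISAT2 2.0.5, counted them on genes with featureCounts 1.5.0-p3, converted the counts to FPKM and tested them with DESeq2 1.20.0. The submitters' processing notes also name CASAVA, StringTie 1.3.3b and the build Rnor_6.0. The deposited values are FPKM, unlogged, with gene lengths. FPKM multiplied by length gave whole multiples of 1 step per library (tolerance 0.02) in 100% of values above 0, from which fragments were recovered, 13573056 to 17211642 per library. Depth limits Ctss and Ctsz most.

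Values were tested on log2(FPKM + 0.1) with limma 3.58.1 in R 4.3.3, over the 15958 genes with a mean of at least 0.5 FPKM, with 1 mean per group, all 9 libraries in a shared fit and a mean-dependent prior variance. A fold change on this scale understates the change of low genes. For a call, the p adjusted by Benjamini-Hochberg had to be 0.05 or less and the fold to exceed 1.5. The fit was tested on simulated data, with the limit on recovery set again at the spread of the well-read genes after a higher assumed spread had missed it, so genes as variable as Ctss and Ctsz are more easily missed. Marker sums were compared by exact two-sided permutation in SciPy, over 6 cell type lists. The members, the lists and the rules were chosen with earlier results of these data known. Named were all 10 genes, other cathepsins and cystatins with a mean of at least 0.5 FPKM, other lysosomal genes called or among the 3 most abundant, the 5 genes nearest to Cst3 and to Ctss, and the leading 3 markers of each list where they bear on a result. Olig1 and Aldh1l1 were added after their values were seen. Of the genes nearest to Ctss, C1qb, Tyrobp and Fcer1g are also in the microglial list. Same-numbered libraries did not deviate together (correlations of deviations -0.07 to 0.03). Alternatives were other pseudocounts, filters, normalizations and tests, a replicate block, and leaving out each library. Proteins were not used here.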

Additional observations from a re-analysis of the deposited data

How the results depend on the processing

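The 30 fold changes of the 10 genes took 570 values under 19 alternatives each. Of these, 567 stayed within 1 SD of the replicates, 3 moved and 0 of the called ones turned. By this rule a fit that left out 1 library could not count as moved, since its shift cannot exceed that SD. Other filters, the fit of 2 groups and the replicate block returned the same fold changes. The 567 is therefore no measure of stability. Ctss with NPCT counted as unmoved while going from 0.56 to -0.20. The sign of 6 fold changes that were not called turned in 1 fit each, always one that left out a library. The 3 that moved were all of Cst3: with quantile normalization it was 0.78 for NPCT and 1.33 for NPCT against PCT, and with the gene length trend removed 0.33 for NPCT. Quantile normalization also gave 1 call among the 10 genes for NPCT (Cst3), against 189 of 15958 genes. It ended the PCT call of Cst3, at -0.55, as did testing without the filter on low values. The cause was not tested. Fitting only the 2 groups compared called 3 of the 10 for NPCT against PCT, but 4 for PCT against Control, where Ctsz was added, and 0 for NPCT. In the same order, that fit called 454, 288 and 579 of 15958 genes, against 919, 368 and 35 in the main fit. The cause was not tested. Leaving out 1 library gave 1 to 5 calls for PCT, against 172 to 398 over all genes. It gave 3 to 6 for NPCT against PCT, against 525 to 1623 over all genes.

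For other lysosomal genes with NPCT, the calls numbered 1 with a mean of at least 1 FPKM, 2 in the fit of 2 groups, 2 with the replicate block and 3 with limma-voom, and 0 to 2 when 1 library was left out. Over all genes, the same 4 settings called 208 of 14538 and 579, 319 and 390 of 15958, against 35. Atp6v1f was called in all 4. With PCT limma-voom gave 2 calls, against 375 over all genes, and leaving out 1 library 0 to 1, against 172 to 398. For NPCT against PCT the fit of 2 groups gave 2, against 454 over all genes, and leaving out 1 library 2 to 7, against 525 to 1623. The replicate block left the members' calls at 0, 3 and 5, against 319, 323 and 886 over all genes. The replicate numbers do not pair the libraries. Counts over all genes called with NPCT ran from 0 to 579 across settings.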
